A study of Mus musculus with 32 samples.

Results

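Chemokines are small secreted proteins that direct the movement of leukocytes. The 10 ligands described here are Ccl2, Ccl6, Ccl7, Ccl9, Ccl11, Cxcl1, Cxcl9, Cxcl10, Cxcl12 and Cxcl13, taken as a list of names out of 51510 mouse genes with a value. Each gene's level is the sum of the TPM of its transcripts, TPM being an abundance per transcript length, scaled to the same total in every library. RNA was sequenced from liver, heart, skeletal muscle and brown adipose tissue (BAT), all of male mice of the C57BL/6J strain. Wild-type mice (WT) were set against mice labelled Mut, a knockout of Smim30, with 4 mice and 4 libraries in each of the 8 groups, 32 libraries in all. Their age and the design of the Smim30 allele were not given in the sources used here. Library depth is unknown, since TPM holds no read totals, and precision was read from the spread between libraries.

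A chemokine binds glycosaminoglycans on cell surfaces and matrix, and is read by G protein-coupled receptors on the cells that it attracts. Most ligands of the CC and CXC families are induced in inflammation, through NF-kB or, for Cxcl9 and Cxcl10, through interferon. Cxcl12 is made constitutively by stromal and endothelial cells and holds leukocytes and progenitors in their niches through Cxcr4. In these tissues the ligands are known for the recruitment of monocytes to fat, liver and injured muscle.

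The families are named for the first pair of cysteines of the mature protein, which are adjacent in CC ligands and separated by 1 residue in CXC ligands. The coding stretches around that pair are shown for 4 members because the spacing separates the 5 CC from the 5 CXC ligands of the list. The sequences are from GENCODE M21 transcripts, and the capitals mark the paired cysteine codons.
Ccl2: gccccactcaccTGCTGCtactcattcacc
Ccl11: atcccaacttccTGCTGCtttatcatgacc
Cxcl9: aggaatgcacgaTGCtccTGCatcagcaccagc
Cxcl12: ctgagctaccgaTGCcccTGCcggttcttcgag
Counted from the start codon, the first codon of the pair is codon 34 in Ccl2, 32 in Ccl11, 30 in Cxcl9 and 30 in Cxcl12. The other 6 members had the spacing of their family as well.

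The genes lie in a few clusters of the GRCm38 build. Ccl2 (chr11:82035571-82037453, plus strand), Ccl7 (chr11:82045712-82047525, plus strand) and Ccl11 (chr11:82057823-82062955, plus strand) follow each other with gaps of 8.26 kb and 10.3 kb. Ccl9 (chr11:83572919-83578636) and Ccl6 (chr11:83587882-83593087) are neighbours on the minus strand of the same chromosome, 9.25 kb apart. Cxcl9 (chr5:92321347-92328079) and Cxcl10 (chr5:92346638-92348889) are both on the minus strand with a gap of 18.6 kb. Cxcl1 (chr5:90891241-90893115) and Cxcl13 (chr5:95956951-95961068) lie on the same chromosome, and Cxcl12 is alone at chr6:117168535-117181367.

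The tissue labels were checked against Alb for liver, Ucp1 for brown fat, Acta1 for skeletal muscle and Myh6 for heart, and each gene was highest in all 8 libraries of its own tissue. Outside it, the group means of these genes were 0.956% to 2.33% of the level in their own tissue. Among the ligands the lowest group mean was 2.37% (Ccl11) to 11.5% (Cxcl10) of the highest group mean, and the part of signal from other tissues in those low levels was not tested. Smim30, listed as 2610001J05Rik, was still present in the Mut libraries at 17.3 to 33.0 TPM against 18.6 to 37.6 TPM in WT. In heart and muscle every Mut library was below every WT library, whereas in BAT and liver the groups overlapped. No source used here says which part of the gene was deleted, so its level checks the labels only in part. In BAT, WT libraries 1 and 2 were lowest in markers of macrophages and in Ccl2, Ccl6, Ccl7 and Ccl9, and results that rest on them are also given without them.

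**Figure D1:**
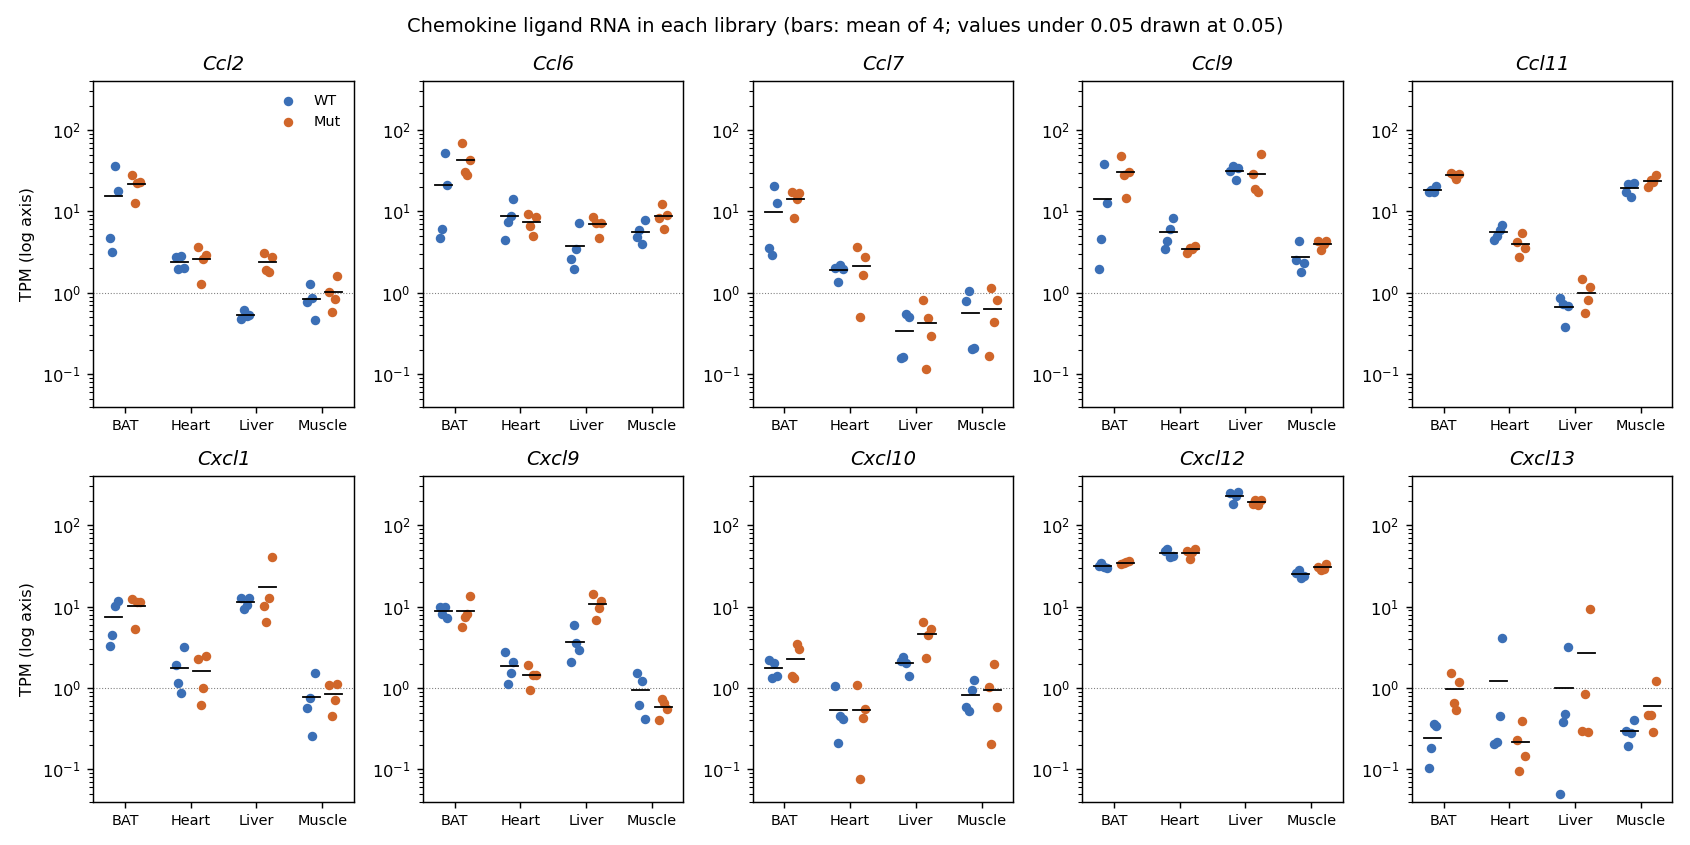
TPM of each ligand (log axis) in the 32 libraries, 1 point per library, by tissue and genotype, with a bar at the mean of 4 and a dotted line at 1 TPM. Cxcl12 in liver lies above all other points, at 179 TPM or more, and the 4 WT BAT libraries of Ccl2, Ccl6, Ccl7 and Ccl9 are spread over most of an order of magnitude or more.

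In WT tissues the ligands had distinct tissue orders. Differences between WT tissues were fitted with limma on log2(TPM + 1) over the 16 WT libraries, and a gene was called where its p, adjusted by Benjamini and Hochberg's method over 14310 genes, was under 0.05. The fit gives a gene the same standard error in every pair, so a wide spread in BAT also widens the pairs without BAT. Of the 10 ligands, 7 were called between liver and BAT, where 71.1% of all genes were called, and 8 between liver and heart, where 78% were. Between liver and muscle 6 were called (78.7% of all genes), between BAT and heart 7 (61.7%), between BAT and muscle 7 (71.4%) and between heart and muscle 3 (63.2%). The share of ligands called was thus near that of all genes for BAT with each other tissue and for liver and heart. It was lower for liver and muscle and for heart and muscle, the latter count changing with the settings.

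Cxcl12, the ligand of Cxcr4 and of the scavenging receptor Ackr3, had the highest mean of the 10 ligands in all 4 WT tissues. In BAT this rested on WT 1 and 2, without which Ccl6 (36.9 TPM) was above Cxcl12 (30.5 TPM). Its levels in WT liver were 247.8, 183.8, 227.7 and 252.9 TPM (228 ± 31.4, SD, n = 4). WT heart followed with 48.0, 50.5, 41.1 and 41.8 TPM, then WT BAT with 31.5, 34.7, 30.9 and 30.1 TPM, then WT muscle with 25.7, 28.4, 22.8 and 24.1 TPM. Liver was apart from every other tissue, and each step down the order was called by limma, with log2 differences of 2.30 (SE 0.103, adjusted p = 1.1e-12), 0.50 (adjusted p = 0.00045) and 0.32 (adjusted p = 0.0098). The first step, liver over heart, was called in all 26 alternatives, with a lowest log2 difference of 1.53. Mitochondrial RNA held 11.7% of TPM in WT liver, 27.4% in muscle, 36.9% in BAT and 42.3% in heart. The TPM left for other genes thus differed between tissues. The last step, BAT over muscle, missed the threshold under median-ratio scaling (log2 0.20, adjusted p = 0.144) and without BAT WT 1 and 2 (adjusted p = 0.0781). Cxcl12 made up 80.6% of the summed TPM of the 10 ligands in WT liver, 60.6% in heart, 44.2% in muscle and 24.6% in BAT.

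Monocyte-attracting Ccl2 and Ccl7, both ligands of Ccr2, were highest in BAT and lowest in liver. Ccl2 measured 4.77, 3.17, 36.5 and 17.9 TPM in WT BAT, 2.74, 1.97, 2.86 and 1.99 TPM in heart, 0.761, 1.27, 0.862 and 0.458 TPM in muscle and 0.475, 0.621, 0.526 and 0.541 TPM in liver. All 4 BAT libraries exceeded every library of the other tissues, and the ratio of means over liver was 28.8, or 15.9 without BAT WT 3 and 50.3 without BAT WT 1 and 2. By limma, Ccl2 was lower in liver than in BAT by a log2 difference of -2.89 (SE 0.465, adjusted p = 2.8e-05). Liver and muscle overlapped and were not called apart (log2 -0.24, adjusted p = 0.654), with the same SE, to which the widely spread BAT libraries contribute. Ccl7 ranged from 2.92 to 20.3 TPM in WT BAT, 1.38 to 2.18 TPM in heart, 0.203 to 1.06 TPM in muscle and 0.156 to 0.549 TPM in liver. Its BAT over liver ratio of means was 28.8, or 18.6 without BAT WT 3 and 48.2 without BAT WT 1 and 2, and it fell below 1 TPM in every WT liver library. Neither Ccl2 nor Ccl7 was called between heart and muscle (limma adjusted p = 0.107 and 0.0550). Yet every heart library was above every muscle library for both genes, with ratios of means of 2.85 and 3.34. They were called in 7 and 12 of 26 alternatives.

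Ccl6 and Ccl9, myeloid CC ligands found in rodents, shared the wide spread in WT BAT but not the tissue order. Ccl6 was 4.66, 6.15, 52.5 and 21.2 TPM in WT BAT, and between 1.96 and 14.3 TPM in all other WT libraries. Among neighbours in its order, BAT, heart, muscle and liver, none were called apart by limma (adjusted p = 0.280, 0.462 and 0.363). The ends of the order, liver and BAT, overlapped but were called apart (liver minus BAT log2 -1.74, SE 0.545, adjusted p = 0.0088). That call held in 25 of 26 alternatives, with a highest limma adjusted p of 0.0617. The BAT over liver ratio of means was 5.58, or 2.82 without BAT WT 3. Ccl9 was 31.7, 35.8, 24.5 and 34.1 TPM in WT liver against 1.95, 4.59, 38.1 and 12.8 TPM in BAT, 3.43 to 8.39 TPM in heart and 1.81 to 4.37 TPM in muscle. Liver was called above heart (log2 2.36, SE 0.535, adjusted p = 0.00069) and muscle (3.14, adjusted p = 4.1e-05). The call over BAT (1.73, adjusted p = 0.0082) was lost without BAT WT 1 and 2, where the log2 difference was 0.47 (adjusted p = 0.267).

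Ccl11, or eotaxin, attracts eosinophils through Ccr3 and is made largely by fibroblasts and other stromal cells. It was even among the libraries of a tissue, at 17.4, 18.1, 17.4 and 20.8 TPM in WT BAT and 17.4, 21.9, 15.2 and 22.6 TPM in WT muscle. Heart gave 4.40 to 6.76 TPM and liver 0.379 to 0.855 TPM. BAT and muscle overlapped and were not called apart (log2 -0.05, SE 0.137, adjusted p = 0.784), and both lay above all heart and liver libraries. Muscle over liver was 29.0-fold in the means (log2 difference of liver minus muscle -3.60, limma adjusted p = 1.0e-13).

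Cxcl1, a ligand of Cxcr2 that attracts neutrophils, was 12.9, 9.39, 10.4 and 12.8 TPM in WT liver and 3.26, 4.44, 10.3 and 11.9 TPM in WT BAT. Heart held 0.871 to 3.17 TPM and muscle 0.259 to 1.54 TPM. Liver and BAT overlapped (log2 0.69, limma adjusted p = 0.0677), and liver was called above heart (2.21, SE 0.324, adjusted p = 8.0e-06) and muscle (2.83, adjusted p = 3.9e-07).

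Cxcl9 and Cxcl10, which attract activated T cells through Cxcr3, differed in order although they are neighbours on the chromosome. Cxcl9 was 10.0, 8.03, 9.89 and 7.32 TPM in WT BAT, above all 4 WT liver libraries at 2.09, 5.88, 3.56 and 2.97 TPM (liver minus BAT log2 -1.14, SE 0.235, limma adjusted p = 0.00034). Heart (1.12 to 2.76 TPM) and muscle (0.421 to 1.52 TPM) were below all BAT libraries. Liver was called above muscle (log2 1.23, limma adjusted p = 0.00014). It was also called above heart (0.66, adjusted p = 0.0171), but the libraries overlapped and that call held in 21 of 26 alternatives. Cxcl10 was near 2 TPM in both liver (1.39 to 2.44 TPM) and BAT (1.32 to 2.22 TPM), with a log2 difference of 0.13 (adjusted p = 0.514), and was 0.212 to 1.25 TPM in heart and muscle. Cxcr3 itself, their receptor, averaged 0.083 to 0.168 TPM in the WT tissues.

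Cxcl13, which guides B cells through Cxcr5, was the least abundant ligand over all libraries, with 6 of 32 at 1 TPM or more. Heart WT 4 was at 4.08 TPM while the other heart WT libraries were at 0.204, 0.216 and 0.448 TPM. Liver WT 4 was at 3.16 TPM against 0, 0.379 and 0.479 TPM, and liver Mut 4 at 9.22 TPM against 0.300, 0.838 and 0.291 TPM. In heart WT 4 the summed level of 6 markers of mesothelial cells, which line the organ surface, was 21.0 TPM against 3.53 to 9.33 TPM in the other 3. In liver WT 4 and Mut 4 the summed level of 6 Kupffer cell markers, those of the resident liver macrophages, was also the highest of the group, at 130.9 against 30.4 to 54.4 TPM and at 299.1 against 78.5 to 110.2 TPM. Their part in the Cxcl13 values was not tested.

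The 4 annotated transcripts of Cxcl12 gave different shares in different tissues. The coding ones share 267 coding bases and end in their own bases, shown here because the shares below turn on these ends. The capitals mark what follows the shared part, stop codon included, and the lower-case letters are its last bases (GENCODE M21).
Cxcl12-202: gagaaagctttaaacaagTAA
Cxcl12-203: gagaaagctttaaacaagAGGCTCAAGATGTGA
Cxcl12-201: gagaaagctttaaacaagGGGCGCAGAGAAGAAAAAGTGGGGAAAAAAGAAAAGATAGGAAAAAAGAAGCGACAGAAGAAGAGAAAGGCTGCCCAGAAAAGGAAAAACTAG
The encoded proteins have 89, 93 and 119 codons before the stop and are known as the alpha, beta and gamma forms, the gamma form for its long basic end. Cxcl12-204 is annotated as a retained intron. Over all libraries the 4 transcripts held 37.1% (Cxcl12-202), 37.0% (Cxcl12-203), 20.4% (Cxcl12-201) and 5.49% (Cxcl12-204) of Cxcl12 TPM.

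Cxcl12-201, the gamma form, made up 50.8 ± 2.73% of Cxcl12 in WT heart (SD, n = 4), 38.1 ± 2.01% in BAT, 30.4 ± 2.87% in muscle and 9.99 ± 2.03% in liver. All 6 tissue pairs were fully separated, each with an exact permutation p of 0.0286, the smallest that 4 against 4 allows (two-sided, adjusted p = 0.0490 over 24 comparisons). Cxcl12-203, the beta form, made up 45.1 ± 2.65% in WT liver and 22.4 to 26.7% in the other 3 tissues, and liver was separated from each of them (exact permutation p = 0.0286, adjusted 0.0490). Cxcl12-202, the alpha form, ranged from 21.7 ± 2.70% in heart to 42.8 ± 4.58% in muscle. Between Mut and WT of a tissue the largest change of a share was 5.69 percentage points (Cxcl12-202 in liver, 43.9% against 38.2%), and none of 16 comparisons had an adjusted p under 0.05 (exact permutation test, lowest adjusted p = 0.114). The split between transcripts that share most of their sequence is an estimate of Salmon, and a share of TPM is not a share of reads.

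**Figure D2:**
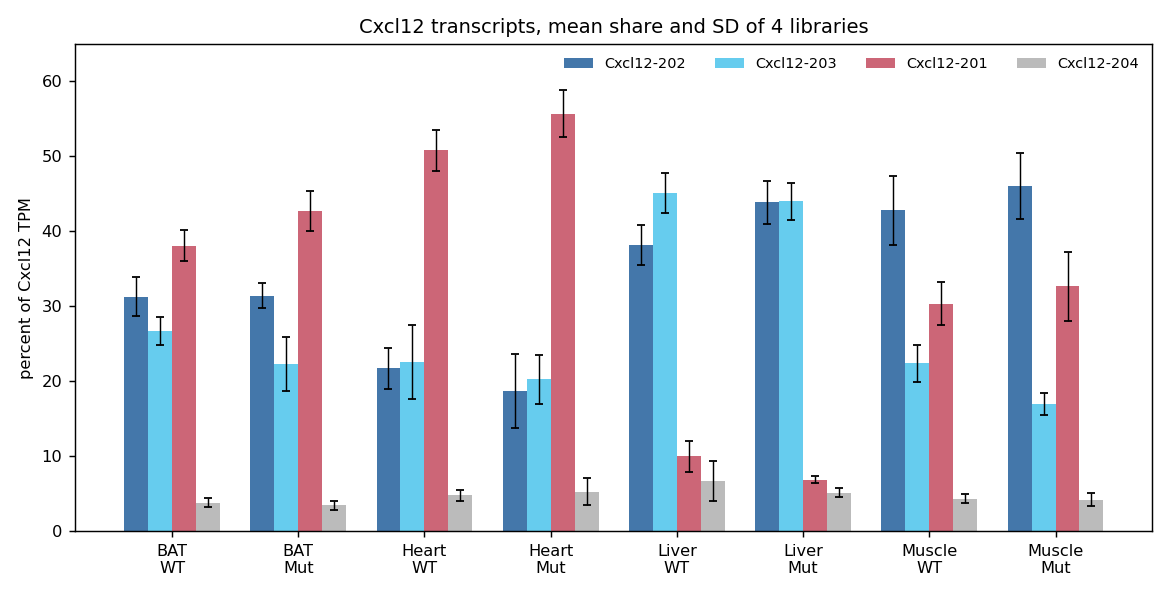
Mean share of each Cxcl12 transcript in percent of Cxcl12 TPM, by tissue and genotype, with the SD of 4 libraries as error bars. The gamma form (Cxcl12-201) is the tallest bar in BAT and heart of both genotypes and falls to 9.99% in WT liver.

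For other members a part of the TPM was assigned to transcripts without an annotated coding sequence. Ccl6-202, a retained intron, held 35.4 ± 3.39% of Ccl6 in WT BAT and 35.9 ± 2.92% in Mut BAT. Ccl9-202, annotated as a processed transcript, held 46.9 ± 4.78% of Ccl9 in WT liver and 51.8 ± 3.11% in Mut liver. Cxcl9-202, a retained intron, held 14.1 ± 16.4% of Cxcl9 in WT liver and 39.2 ± 3.89% in Mut liver. Gene levels of Ccl6, Ccl9 and Cxcl9 therefore include RNA that may not encode the ligand.

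Mut and WT were compared within each tissue by limma on log2(TPM + 1), for genes whose mean in that tissue (8 libraries) reached 1 TPM. In the liver 2 of the 8 ligands tested were called, Ccl2 and Cxcl9, both higher in Mut, against 4.16% of all 11994 genes tested and 3.78% called higher (453 higher and 46 lower, or 153 and 119 under median-ratio scaling). In BAT 0 of 9 were called (0% of 12150 genes), in heart 0 of 8 (0.15% of 12019) and in muscle 0 of 4 (0.0085% of 11771). With limma's array weights 1 ligand was called in BAT, with 1 fit over all 32 libraries 3 were, and neither called a ligand in heart or muscle. At an unadjusted p under 0.05, 3 of 9 ligands passed in BAT (19.5% of all genes), 2 of 8 in heart (11.6%), 4 of 8 in liver (25.9%) and 3 of 4 in muscle (7.76%). The median log2 difference of the ligands tested was 0.58 in BAT (all genes 0.09), -0.13 in heart (all genes -0.11), 0.64 in liver (all genes 0.10) and 0.37 in muscle (all genes 0.05). These are descriptions of the ligands that reached the minimum, which Ccl2 in liver did only through its Mut libraries.

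**Figure D3:**
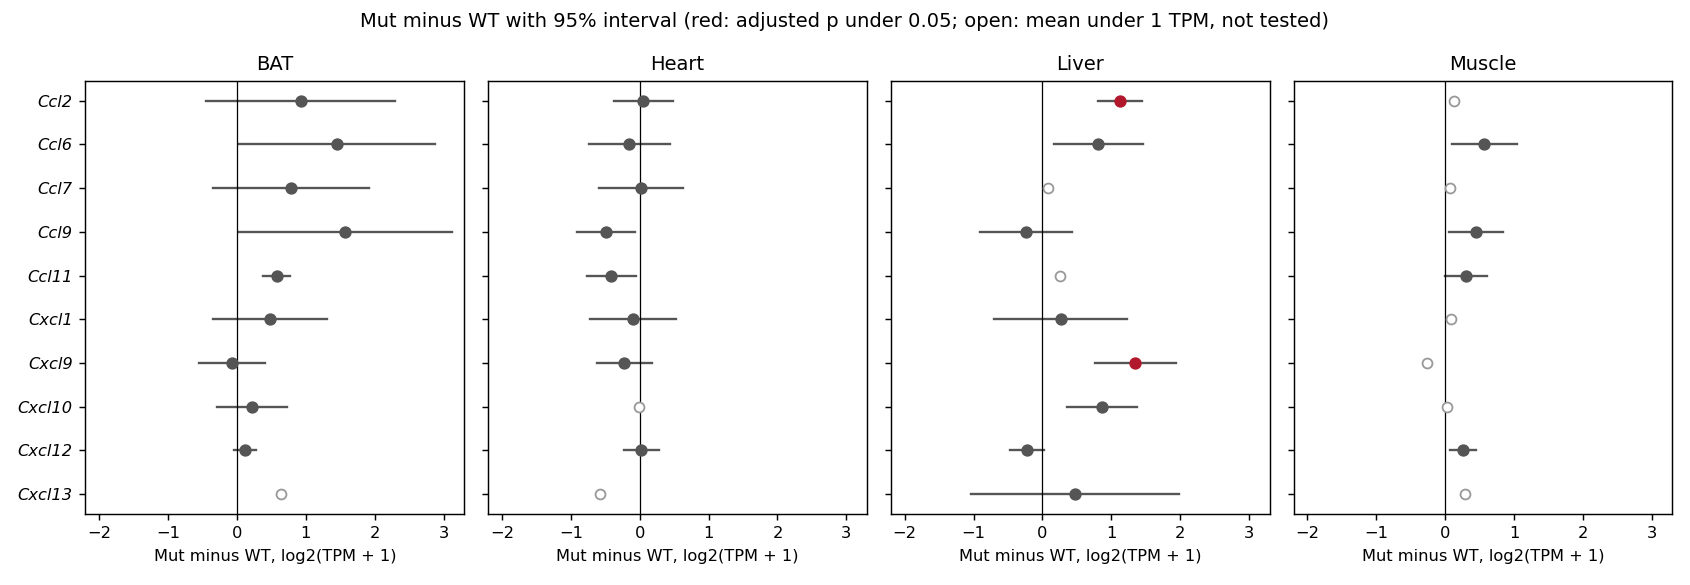
Mut minus WT difference of each ligand on the log2(TPM + 1) scale in the 4 tissues, with the 95% interval of limma as a line. Ccl2 and Cxcl9 in liver, in red, have an adjusted p under 0.05, and open circles are ligands with a mean under 1 TPM, which were not tested.

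Summed over its transcripts, Cxcl9 rose in Mut liver. Its 4 WT libraries were at 2.09, 5.88, 3.56 and 2.97 TPM and its 4 Mut libraries at 14.5, 6.77, 9.52 and 11.9 TPM. Every Mut library was above every WT library, with Mut 2 nearest to the highest WT library. The means were 3.63 ± 1.62 and 10.7 ± 3.28 TPM (SD, n = 4), a ratio of 2.94 and a log2 difference of 1.35 (SE 0.263, limma adjusted p = 0.0313). The call was lost when any one of 6 libraries was left out: WT 1 (adjusted p = 0.0534), WT 3 (0.0808), WT 4 (0.0636), Mut 1 (0.0857), Mut 3 (0.0547) or Mut 4 (0.0598). It was also lost with no minimum (0.232) and with the replicate number as a block (0.0820), so it held in 9 of 17 alternatives. The log2 difference stayed between 1.16 and 1.57 in all 17 alternatives.

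The coding transcript of Cxcl9 did not separate the liver groups. Cxcl9-201 was 2.09, 4.31, 2.50 and 2.97 TPM in WT and 8.30, 3.93, 6.27 and 7.34 TPM in Mut, with Mut 2 inside the WT range and a ratio of means of 2.18. The retained intron Cxcl9-202 was listed at 0 in WT 1 and WT 4, was 1.57 and 1.06 TPM in WT 2 and WT 3, and was 6.15, 2.84, 3.25 and 4.53 TPM in Mut, above all WT libraries. The difference of the means was 3.49 TPM for the coding transcript and 3.54 TPM for the retained intron. The transcripts were looked at after the gene was called and were not tested, and their split is an estimate.

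Cxcl10 did not pass in the same liver libraries. It measured 2.16, 2.44, 2.04 and 1.39 TPM in WT and 6.40, 2.35, 4.51 and 5.26 TPM in Mut. Mut 2 lay inside the WT range and the other 3 Mut libraries above it, for a log2 difference of 0.86 (SE 0.227, limma adjusted p = 0.0615). Without Mut 2 it was 1.09 (adjusted p = 0.0333).

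Ccl2 rose from a low level in Mut liver. The WT libraries were at 0.475, 0.621, 0.526 and 0.541 TPM and the Mut libraries at 3.13, 1.93, 1.79 and 2.74 TPM. The groups were fully separated, with a ratio of means of 4.44 and a log2 difference of 1.12 (SE 0.142, limma adjusted p = 0.0150). Its WT mean of 0.541 TPM was below the minimum of 1 TPM, so it entered the test through its Mut libraries, and with no such minimum, over 51510 genes, it missed the threshold (adjusted p = 0.0947). Fully separated groups, Mut higher, were found for 14.3% of all genes in liver.

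The remaining liver ligands were not called. Ccl6 was 2.58, 1.96, 3.49 and 7.12 TPM in WT and 8.66, 7.13, 4.72 and 7.19 TPM in Mut (log2 0.81, SE 0.289, limma adjusted p = 0.120), and without WT 4 its adjusted p was 0.0466. Cxcl1 was 9.39 to 12.9 TPM in WT against 10.2, 6.48, 12.8 and 40.5 TPM in Mut, where library 4 alone was high. Ccl9 (log2 -0.24, adjusted p = 0.642), Cxcl12 (-0.23, adjusted p = 0.238) and Cxcl13 (0.47, adjusted p = 0.689) had intervals that included 0. Ccl7 and Ccl11 averaged 1.01 TPM or less in both groups and were not tested.

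**Figure D4:**
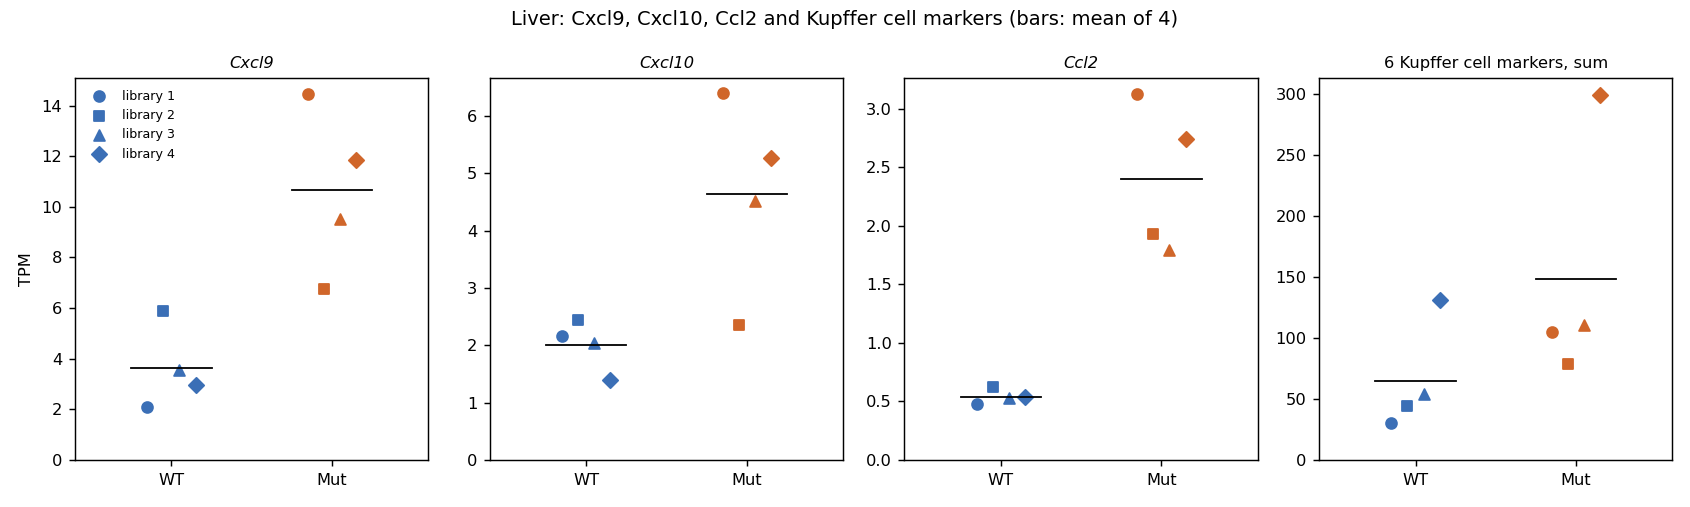
TPM of Cxcl9, Cxcl10 and Ccl2 and the summed TPM of 6 Kupffer cell markers in the 8 liver libraries, with a marker shape per library number and a bar at the mean of 4. Cxcl9 and Ccl2 are separated between WT and Mut, whereas Cxcl10 and the marker sum overlap.

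Of 18 listed NF-kB target genes, 14 were tested in liver, 12 were above 0 (69% of all genes were) and 1 was called (4.16% of all genes were), with a median of 0.29 against 0.10 for all genes. The called gene, the acute-phase protein Saa3, rose from 4.41, 8.98, 8.49 and 7.69 TPM to 13.3, 15.1, 18.4 and 28.6 TPM (log2 1.22, SE 0.250, limma adjusted p = 0.0353). Among 12 genes of chemokine processing and binding, 8 were tested and 1 was called, the macrophage elastase Mmp12. It went from 0.682, 0.606, 0.679 and 0.489 TPM in WT to 5.05, 1.81, 2.22 and 2.38 TPM in Mut (log2 1.19, adjusted p = 0.0254), and it too passed the minimum through its Mut libraries. Of 27 further chemokine ligands 9 were tested in liver, 7 were above 0 and none was called.

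Summed marker genes of macrophages also had a higher mean in Mut liver. The summed level of 12 macrophage markers was 68.5, 91.3, 97.2 and 213.2 TPM in WT liver and 186.9, 152.6, 169.2 and 384.0 TPM in Mut liver. WT 4 had the highest WT sum, with Cxcl9 (2.97 TPM) and Ccl2 (0.541 TPM) inside the range of the other WT libraries. Mut 4 had the highest Mut sum, and Cxcl9 and Ccl2 were highest in Mut 1. WT 1 was the lowest WT library in the sum, in Cxcl9 (2.09 TPM) and in Ccl2 (0.475 TPM). Mut 2 was the lowest Mut library in the sum and in Cxcl9 (6.77 TPM), while Ccl2 was lowest in Mut 3 (1.79 TPM). All 11 tested markers were above 0 (69% of all genes were), of which Cd68 was called (log2 1.09, limma adjusted p = 0.0380). The 6 Kupffer cell markers summed to 30.4, 43.9, 54.4 and 130.9 TPM in WT and 104.9, 78.5, 110.2 and 299.1 TPM in Mut, with 6 of 6 above 0 and none called. The 8 fibroblast markers summed to 101.4 to 140.6 TPM in WT and 130.9 to 200.1 TPM in Mut, with 3 of 7 tested called higher (3.78% of all genes were). Markers of T and NK cells, the cells that Cxcl9 attracts, summed to 1.33 to 2.33 TPM in WT and 2.13 to 2.96 TPM in Mut over 10 genes, of which 2 in WT and 0 in Mut were under 0.1 TPM in every library. In bulk tissue, fewer cells of a type and less RNA per cell cannot be told apart. The part of these cells in the Cxcl9 and Ccl2 results was not tested.

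Of the 10 ligands, 7 had a promoter in the RefSeq table for GRCm38.p6. Those of Cxcl9 and Cxcl10 are printed, 250 bases up to the transcription start, because these neighbours on the chromosome are both induced by interferon. Whether their liver differences differ from each other was not tested. Capitals mark matches, on either strand, to 3 motifs: the kappaB consensus of NF-kB, a pair of GAAA with 2 bases between them as in the response element of interferon regulatory factors, and TATAAA of the TATA box.
Cxcl9 (chr5:92328080-92328329, minus strand): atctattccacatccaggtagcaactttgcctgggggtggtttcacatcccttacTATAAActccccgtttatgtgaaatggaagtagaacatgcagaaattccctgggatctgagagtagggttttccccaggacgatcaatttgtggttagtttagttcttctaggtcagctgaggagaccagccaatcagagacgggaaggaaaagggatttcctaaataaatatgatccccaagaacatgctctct
Cxcl10 (chr5:92348890-92349139, minus strand): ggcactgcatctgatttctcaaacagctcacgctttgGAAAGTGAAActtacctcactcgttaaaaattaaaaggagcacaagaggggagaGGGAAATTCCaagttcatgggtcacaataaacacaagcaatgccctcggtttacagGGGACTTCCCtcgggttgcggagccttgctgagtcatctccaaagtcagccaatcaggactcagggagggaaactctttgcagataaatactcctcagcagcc
Cxcl10 holds 2 matches to the kappaB consensus and 1 to the GAAA pair, and Cxcl9 holds 1 to TATAAA. Matches were sought in windows of 300 bases, the 250 before the start and 50 after it. In such windows over 32851 promoters, the kappaB consensus was found in 4.505%, the GAAA pair in 3.443%, and TATAAA in 13.62%. Of the other 5 promoters, Cxcl1 held 2 overlapping kappaB matches, Ccl9 held 1 kappaB match and 3 TATAAA matches (2 of them overlapping), Cxcl13 held 1 TATAAA, and Ccl6 and Cxcl12 held none of the 3 motifs. A match is a description of the letters, not evidence of binding.

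Whether the Mut minus WT difference varied between tissues was tested in 1 limma model over all 32 libraries, where 6.03% of 14367 genes were called for the tissue by genotype interaction. Cxcl9, summed over its transcripts, was called (adjusted p = 0.0077) and passed in all 41 alternatives in which it could be tested. Its liver difference exceeded that of BAT by 1.42 (SE 0.338, adjusted p = 0.0167), that of heart by 1.57 (adjusted p = 0.0060) and that of muscle by 1.61 (adjusted p = 0.0106) on the log2 scale. These 3 differences were called for 3.64%, 6.38% and 1.4% of all genes. Mut and WT of the other tissues overlapped for Cxcl9, at 5.61 to 13.6 TPM in Mut BAT against 7.32 to 10.0 TPM in WT BAT, and at 0.943 to 1.91 TPM in Mut heart against 1.12 to 2.76 TPM in WT heart. In muscle it was 0.408 to 0.729 TPM in Mut and 0.421 to 1.52 TPM in WT.

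Ccl11 was the other ligand called for the interaction (adjusted p = 0.0251). In BAT it was 17.4, 18.1, 17.4 and 20.8 TPM in WT and 29.9, 27.9, 25.1 and 29.1 TPM in Mut. The groups did not overlap and the ratio of means was 1.52, yet within BAT the difference missed the threshold (log2 0.58, SE 0.0875, limma adjusted p = 0.106), as did every other gene there. Fully separated groups with Mut higher were found for 7.75% of the 12150 genes tested in BAT, and for Ccl11 alone of the 9 ligands tested. Cxcl13, which was not tested and is not part of that share, had such groups too. Heart went the other way, at 4.40, 5.01, 5.95 and 6.76 TPM in WT and 4.20, 2.75, 5.37 and 3.53 TPM in Mut, with overlap (log2 -0.41, adjusted p = 0.410). The BAT difference exceeded the heart difference by 0.99 (SE 0.215, adjusted p = 0.0130), a difference called for 6.1% of all genes. The interaction call for Ccl11 was lost without heart WT 4 (adjusted p = 0.0692) or heart Mut 2 (0.0654), and under 4 other settings, median-ratio scaling among them (0.0524).

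Several marker sums were separated between the BAT groups, as Ccl11 was. The 8 fibroblast markers summed to 191.9, 250.7, 338.1 and 298.0 TPM in WT BAT and 745.2, 409.5, 413.3 and 569.5 TPM in Mut BAT. All 8 were above 0 (72.7% of all genes were), 7 had separated groups (7.75% of all genes had, Mut higher) and none was called (0% of all genes were). Among the 4 WT libraries WT 3 was highest in these markers but not in Ccl11. The sums were also separated for 7 markers of pericytes and smooth muscle (184.3 to 216.5 TPM in WT, 228.9 to 266.4 TPM in Mut), 8 of B and plasma cells (18.5 to 31.7 TPM, 41.8 to 58.1 TPM) and 6 of red blood cells (2096 to 3864 TPM, 4081 to 6221 TPM). Of the 8 B and plasma cell markers only 1 had separated groups by itself, and of the 2 tested only 1 was above 0. The part of these cells in the Ccl11 values was not tested. In muscle, where Ccl11 was 15.2 to 22.6 TPM in WT and 20.0 to 27.7 TPM in Mut (log2 0.30, adjusted p = 0.641), the same markers summed to 345.5 to 419.3 and 447.1 to 501.6 TPM.

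The CC ligands of monocytes and macrophages varied most among the WT BAT libraries. Ccl2 was 4.77, 3.17, 36.5 and 17.9 TPM in WT and 28.0, 12.7, 22.1 and 23.0 TPM in Mut (log2 0.92, SE 0.612, limma adjusted p = 0.442). Ccl7 was 3.55, 2.92, 20.3 and 12.7 TPM in WT and 17.3, 8.26, 14.3 and 16.7 TPM in Mut (log2 0.79, adjusted p = 0.429). WT 1 and WT 2 were below all Mut libraries for both genes, and WT 3 was above all of them. Ccl6 was 4.66, 6.15, 52.5 and 21.2 TPM in WT and 68.4, 30.2, 27.8 and 43.1 TPM in Mut (log2 1.46, SE 0.636, adjusted p = 0.246). Ccl9 was 1.95, 4.59, 38.1 and 12.8 TPM in WT and 48.5, 27.9, 14.6 and 30.4 TPM in Mut (log2 1.57, SE 0.694, adjusted p = 0.250). For these genes WT 1, WT 2 and WT 4 lay below all Mut libraries and WT 3 lay inside the Mut range.

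The sum of 12 macrophage markers followed the same libraries. It was 83.9, 126.7, 419.7 and 260.0 TPM in WT BAT and 477.3, 410.0, 418.7 and 528.6 TPM in Mut BAT. All 12 were above 0 in Mut minus WT (72.7% of all genes were), none was called, and the median was 1.16. Without WT 1 and 2, left out after seeing that they were lowest in these very ligands, the log2 differences were -0.30 for Ccl2, -0.22 for Ccl7, 0.24 for Ccl6 and 0.32 for Ccl9, with limma adjusted p of 0.684, 0.730, 0.802 and 0.781. Without WT 3, by contrast, Ccl6 (2.08, adjusted p = 0.0376), Ccl9 (2.24, adjusted p = 0.0389) and Ccl11 (0.55, adjusted p = 0.0217) were called. The part of macrophage number in these values was not tested.

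**Figure D5:**
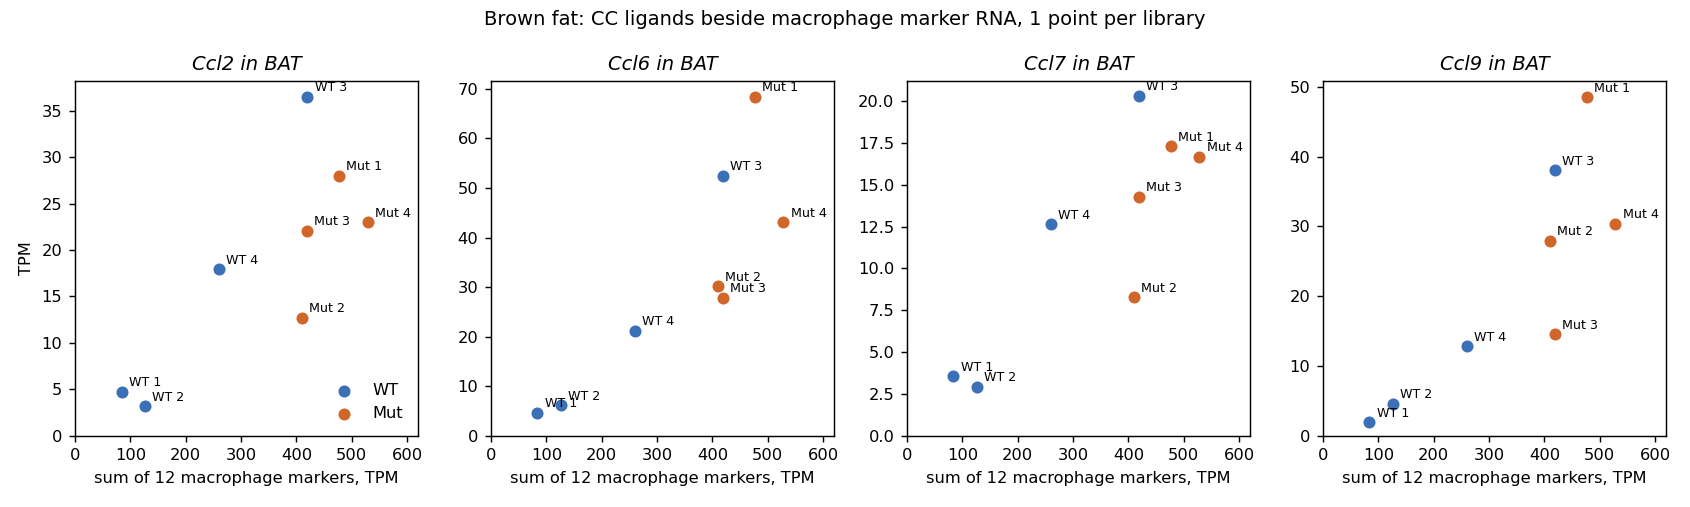
TPM of Ccl2, Ccl6, Ccl7 and Ccl9 in the 8 BAT libraries against the summed TPM of 12 macrophage markers, 1 labelled point per library. WT 1 and WT 2 sit at the lower left in every panel, and WT 3 sits at 419.7 TPM of markers, within the range of the Mut libraries.

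Of the other ligands of BAT, Cxcl1, Cxcl9, Cxcl10 and Cxcl12 overlapped between genotypes. Cxcl1 was 3.26, 4.44, 10.3 and 11.9 TPM in WT and 12.4, 5.35, 11.3 and 11.3 TPM in Mut (log2 0.48, limma adjusted p = 0.510). Cxcl10 (log2 0.22, adjusted p = 0.647), Cxcl12 (0.12, adjusted p = 0.392) and Cxcl9 (-0.07, adjusted p = 0.897) had intervals that included 0. Cxcl13, at 0.104, 0.182, 0.357 and 0.339 TPM in WT and 1.51, 0.648, 0.532 and 1.19 TPM in Mut, was separated but too low to be tested.

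Of the 27 further chemokine ligands, 15 were tested in BAT, all 15 were above 0 (72.7% of all genes were) and none was called. Pf4, a platelet and macrophage CXC ligand, was 8.17, 10.8, 37.9 and 26.3 TPM in WT and 51.6, 33.6, 36.1 and 48.5 TPM in Mut (log2 1.21, limma adjusted p = 0.168). Ccl12, a further Ccr2 ligand of rodents, had separated groups (1.72 ± 1.10 and 4.25 ± 1.36 TPM, log2 1.01, adjusted p = 0.146). In WT tissues the highest of these ligands were Pf4 in BAT (20.8 TPM), Cxcl14 in muscle (21.9 TPM), Ccl21a in heart (23.4 TPM) and Ccl27a in liver (21.2 TPM), of which Ccl21a and Ccl27a have near-identical copies and an uncertain level.

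A smaller share of the listed receptors than of the listed ligands reached 1 TPM. Of 22 receptor genes, 8 averaged at least 1 TPM in any group, against 17 of the 27 further ligands and all 10 ligands described here. Ackr3, the scavenger of Cxcl12, was the highest in every WT tissue, at 47.1 ± 18.8 TPM in BAT, 22.7 ± 4.23 TPM in heart, 8.89 ± 1.10 TPM in muscle and 1.42 ± 0.0660 TPM in liver (SD, n = 4). Its tissue order put liver last, while Cxcl12 itself was highest there. Cxcr4 was 1.42, 1.37, 3.70 and 2.38 TPM in WT BAT and 6.21, 5.51, 4.99 and 7.51 TPM in Mut BAT, with no overlap (log2 1.18, SE 0.215, limma adjusted p = 0.106). Ccr2, the receptor of Ccl2 and Ccl7, averaged 2.12 ± 1.22 TPM in WT BAT and 5.14 ± 1.19 TPM in Mut BAT (log2 1.04, adjusted p = 0.125). Of the receptors, 4 reached the minimum in BAT, 4 in heart, 2 in liver and 4 in muscle, and none of these was called between Mut and WT.

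In heart no ligand was called. Ccl9 was 3.43, 4.37, 6.00 and 8.39 TPM in WT and 3.12, 3.58, 3.47 and 3.72 TPM in Mut (log2 -0.49, SE 0.191, unadjusted p = 0.0247, limma adjusted p = 0.400). The Mut libraries were tightly grouped at the low end of the WT range. The coding transcript Ccl9-201 averaged 2.41 ± 0.758 TPM in WT against 2.27 ± 0.298 TPM in Mut. The processed transcript Ccl9-202 averaged 3.14 ± 1.48 and 1.20 ± 0.459 TPM, with separated groups. For Ccl2 (log2 0.05), Ccl6 (-0.15), Ccl7 (0.02), Cxcl1 (-0.10), Cxcl9 (-0.22) and Cxcl12 (0.02) the intervals included 0, with adjusted p between 0.586 and 0.981.

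In muscle 4 ligands were high enough to test, and none was called. Cxcl12 was 25.7, 28.4, 22.8 and 24.1 TPM in WT and 30.7, 28.3, 29.4 and 33.2 TPM in Mut (log2 0.26, SE 0.0848, unadjusted p = 0.0123, limma adjusted p = 0.533). Only Mut 2 fell within the WT range. Ccl6 was 4.78, 5.91, 4.01 and 7.90 TPM in WT and 8.30, 12.2, 6.02 and 9.09 TPM in Mut (log2 0.57, adjusted p = 0.577), and Ccl9 was 1.81 to 4.37 TPM in WT and 3.32 to 4.33 TPM in Mut (log2 0.45, adjusted p = 0.621). The macrophage markers summed to 67.4 to 87.8 TPM in WT muscle and 94.6 to 128.8 TPM in Mut muscle, 11 of 11 above 0 (67% of all genes were) and none called.

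For each ligand with a mean of at least 1 TPM, the genes most like it were taken from 11749 genes by Pearson correlation over the 32 libraries. Deviations from the 8 group means remove tissue and genotype, and what remains shares the libraries and their depth, so these values are descriptions. By deviations, Ccl7 was the gene most like Ccl2 (r = 0.875) and Ccl2 the gene most like Ccl7, followed by Ccl8 (r = 0.851). Nearest to Ccl6 were Ms4a6b (r = 0.873), Lgals3 (0.869) and C5ar1 (0.865), and nearest to Ccl9 were Capg (0.910), Fam111a (0.905) and Emp3 (0.904). The deviations of Ccl2, Ccl6, Ccl7 and Ccl9 were widest in WT BAT, so those libraries weigh most in their values. The highest values were lower for Ccl11 (Scpep1, 0.732), Cxcl9 (Trp53bp1, 0.735), Cxcl12 (Tmem260, 0.706) and Cxcl10 (Ndufa4l2, 0.646), and Slc6a6 was nearest to Cxcl1 (0.832). By levels, which are led by tissue, the nearest genes were Echdc2 for Cxcl12 (r = 0.990) and Ano6 for Ccl11 (0.978).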

How the data were processed

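RNA-seq libraries from 4 tissues and 2 genotypes (4 per group, taken from the sample titles) were analysed. The authors deposited TPM per transcript, made with Salmon per the submitters' processing notes. Its version, and the release and build of the transcripts, were not given in the sources used here. Per the labels' protocols, total RNA went into strand-specific Illumina libraries. Of 147493 transcript identifiers 136081 (92.3%) matched GENCODE M21 on GRCm38 with versions ignored. The deposited version was higher than that of M21 for 136044 of them, so coordinates and sequences are those of M21. The 11412 unmatched held 0.451% to 0.896% of TPM. TPM was summed per gene in Python 3.11.15 and tested on log2(TPM + 1) with limma 3.58.1 in R 4.3.3 (trend, 1 TPM minimum mean, two-sided, Benjamini-Hochberg over all genes tested, called under 0.05). For differences between WT tissues the minimum had to be met in the mean of at least 1 tissue, and a fold on this scale understates the change of low genes. Transcript shares were compared by exact permutation over 70 assignments. The procedure was tested on simulated data.

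Members, pathway lists and 19 marker lists were chosen with earlier results of these data known, and 1 of the pathway lists is not reported here. Genes outside the list were named by rule: up to 3 called genes per list and comparison, the 3 of highest WT level in a tissue (of which some are given), and for each ligand the 3 genes of highest correlation. Ccl12, Ccr2, Cxcr3, the marker Cd68 and the BAT comparison of Pf4 and Cxcr4 were named after their values were seen. Whether 1 replicate number marks 1 mouse across tissues is not stated. Alternatives covered the pseudocount, the minimum, the scaling, limma's options, a replicate block, 1 fit over all libraries and leaving out each library.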

Additional observations from a re-analysis of the deposited data

Results flagged for a closer look

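Within groups of 4, single libraries stood far from the other 3 in 4 of 80 groups (10 ligands in 8 groups), which is the 1 in 20 that chance gives. Cxcl13 was far above the rest in heart WT 4 (4.08 TPM), liver WT 4 (3.16 TPM) and liver Mut 4 (9.22 TPM). Cxcl1 was far below the rest in BAT Mut 2 (5.35 TPM, the other 3 at 11.3 to 12.4 TPM). The Mut minus WT difference varied between tissues for Cxcl9 (limma adjusted p = 0.0077), with the highest value in liver, and for Ccl11 (adjusted p = 0.0251), with opposite directions in BAT and heart.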

How the results depend on the processing

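No value reversed its direction while called. Genes called in BAT (0) were 7 with no filter, 1 at a 5 TPM minimum, 648 with array weights, 848 in 1 fit over all libraries, and 0 to 819 without single libraries; ligands called there (0) were 1 with array weights, 3 in 1 fit over all libraries, and 0 to 3 without single libraries (3 without BAT WT 3). Genes called in heart (18) were 0 with no filter, 10 at 5 TPM, 11 under median-ratio scaling, 8 under rescaling after dropping mitochondrial genes and the 10 highest, 44 with array weights, 166 in 1 fit and 7 to 20 without single libraries. In liver (499) they were 11 with no filter, 272 under median-ratio scaling, 1902 in 1 fit and 22 to 390 without single libraries, and ligands called (2) were 0 with no filter, 1 at 5 TPM (Ccl2 not tested) and 1 to 3 without single libraries. In muscle (1) they were 2 with no filter, 7 in 1 fit and 0 to 8 without single libraries. Ligands called between WT liver and heart (8) were 5 with no filter. Those between WT heart and muscle (3) were 6 with a pseudocount of 0.1 and under rescaling, 5 with array weights and in 1 fit, 6 without BAT WT 1 and 2, and 2 to 5 without single libraries. Genes called for the interaction (867) were 479 with no filter, 2305 with array weights and 486 to 1560 without single libraries; ligands called (2) were 1 with a pseudocount of 0.1, no filter or rescaling, 4 with array weights, 0 where the minimum had to be met in every tissue, which leaves Ccl11 and Cxcl9 untested, and 1 to 5 without single libraries (5 without BAT WT 3). Median-ratio scaling moved the median of all genes to near 0 from -0.11 in heart and 0.10 in liver. Depth is unknown, and with 4 libraries a group the spread limits every comparison.

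Nothing in the labels pairs the libraries by replicate number, and correlations of same-numbered deviations ran from -0.248 to 0.148, and no pair of groups had all 4 over 0.1. Of 16 comparisons of a WT library with the Mut libraries of its tissue, 1 was closest to its own number. Across tissues it was 17 of 24 comparisons for Mut and 12 of 24 for WT, in which the same libraries recur. This is a hint that a number may mark something shared across tissues, such as a mouse, and what it marks was not tested. With the number as a replicate block, 9 genes were called in heart, 126 in liver and 0 in muscle, and 1 ligand in liver (Ccl2, adjusted p = 0.0398), Cxcl9 being at 0.0820. Among WT tissues the block called Cxcl1 between liver and BAT (adjusted p = 0.0310) and Ccl6 between liver and heart (0.0394) and between BAT and muscle (0.0226), and did not call Cxcl9 between heart and muscle (0.0572).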
